A study of Rattus norvegicus with 26 samples.

Results

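The 6 genes described here lie side by side on chromosome 13 between positions 56598957 and 57080622, as deposited, on a genome build that the sources used here do not name. They were chosen by position and by counts, as the rows of the count files that lie wholly inside this window, ranked by raw counts summed over all libraries. The window holds 6 of the 32552 features in the files, so all of its rows were kept and none fell just outside the rank. The window itself was selected on measured values, the contrast of LAP+/OC2+ with LAP+/OC2- cells, in which neighbouring genes were lower together, so levels in those sorts are given as a description and carry no test.

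RNA was sequenced from rat hepatocytes before transplantation and from liver tissue after it, in 26 libraries. Immunopurified fetal hepatocytes came as 3 sorts, labelled LAP+/OC2+, LAP+/OC2- and LAP+ (4 libraries each), and were set against adult hepatocytes (4 libraries). Post-transplant libraries came from laser-captured liver, 5 from colonies that fetal cells had formed and 5 from adult host tissue next to them, under the same 5 biological replicate numbers, read here as 5 animals. The labels spell out neither LAP nor OC2, and the sources used here give no strain, sex, age in days or interval after transplantation. Captured tissue can hold other cell types, and in such bulk libraries fewer cells of a type and less RNA per cell cannot be told apart.

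As background, hepatocytes make most of the complement and coagulation proteins that circulate in plasma, and output of such proteins is part of mature liver function. Several of these proteins are strings of short repeats (sushi or complement control protein domains), each mostly encoded by an exon of its own whose length keeps the reading frame. RefSeq's table for the rat assembly GRCr8 pairs 0 of the 32552 deposited identifiers with a symbol, so no gene of the window is named here, none could be matched to a promoter sequence, and the set is called the chromosome 13 cluster. For the same reason hepatocyte markers and other genes of these systems could not be looked up in these libraries.

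The exons of the 6 genes were alike in a way that the choice of the window did not use. Of their 65 inner exons (merged exons other than the first and last of a gene), 53 were 160 to 210 nt long, or 81.5%, against 15.96% of the 172586 inner exons of all other genes in the files. A length divisible by 3 was found for 81.5% of the cluster's inner exons and 40.7% of the others. Both features together held for 50 of 65 (76.9%), against 6.03% elsewhere. No other length band was set beside that of 160 to 210 nt, whose upper edge is the longest inner exon of ENSRNOG00000042369. The shares and ranks that use the band depend on that choice. Among the 11414 genes with at least 7 exons, ENSRNOG00000042369 ranked 1st and ENSRNOG00000030715 ranked 2nd by the share of inner exons with both features. ENSRNOG00000042901 ranked 4th, ENSRNOG00000021575 7th and ENSRNOG00000012613 25th, and ENSRNOG00000052604 stood lowest of the 6 at rank 89, with 3 of its 8 inner exons. Among those listed inner exons, pieces of 115 and 56 nt, and of 124, 27 and 38 nt, lie only a few nt apart. ENSRNOG00000012613 has listed inner exons of 3 and 4 nt. The exon counts and ranks of these genes therefore depend on how the annotation splits exons, and a low rank does not show a different structure.

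ENSRNOG00000012613 lies first, on the plus strand, from 56598957 to 56623124 with 14 exons and 2352 nt of exon. The other 5 genes lie on the minus strand. ENSRNOG00000021575 runs from 56642365 to 56693968 (11 exons, 1722 nt of exon) and ENSRNOG00000052604 from 56730397 to 56763981 (10 exons, 1170 nt). ENSRNOG00000042901 runs from 56836994 to 56877650 (7 exons, 1464 nt) and ENSRNOG00000042369 from 56889669 to 56958561 (13 exons, 2922 nt). ENSRNOG00000030715, the longest, closes the window from 56978607 to 57080622 with 22 exons and 4880 nt. No annotated feature on either strand overlapped any of the 6. The sources used here do not say how reads that map to several places were counted, so if the 6 genes share near-identical stretches, the split of reads between them is uncertain.

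**Figure D1:**
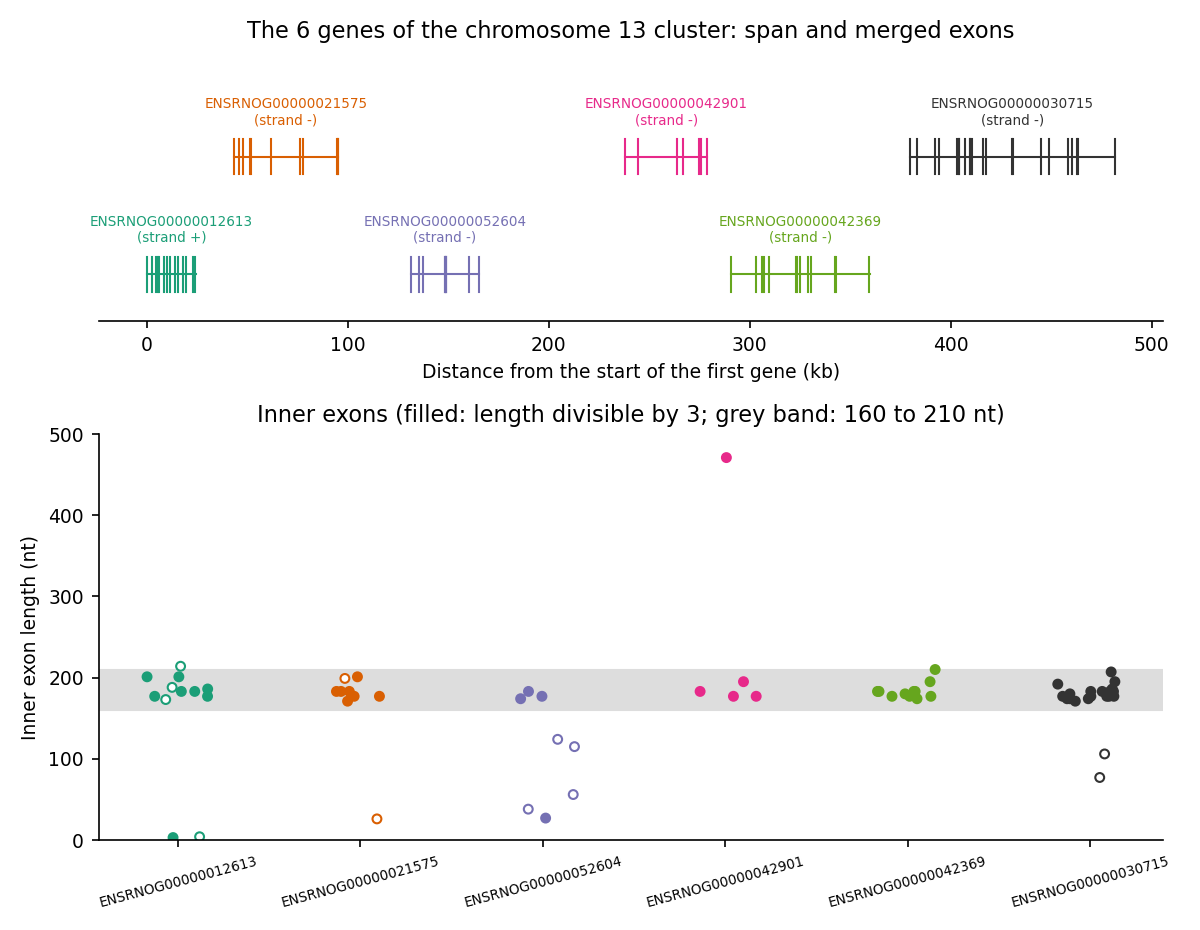
Upper panel, span (line) and merged exons (ticks) of the 6 genes against distance from the start of the first gene in kb, with the strand of each. Lower panel, length in nt of each inner exon, filled where divisible by 3. Of 65 inner exons, 53 fall in the grey band of 160 to 210 nt.

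Library totals ranged from 7871347 to 16874438 counts. The LAP+/OC2+ libraries stood apart, with 38.9 to 78.6% of counts on the mitochondrial chromosome and 1917734 to 5045098 nuclear counts. In the other pre-transplant groups the mitochondrial share was between 4.11 and 10.3%. Levels below are in CPM, with library sizes scaled by the TMM method within a stage. CPM levels are not compared across stages, because library kit and material differ between them. Some ratios between genes of the same library are set side by side across stages, without a test.

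All 6 genes were lower in LAP+ fetal hepatocytes than in adult hepatocytes before transplantation. The LAP+ mean ran from 2.21% of the adult mean for ENSRNOG00000042901 to 66.5% for ENSRNOG00000012613. Each was past an adjusted p of 0.05 in edgeR's quasi-likelihood test over 13818 genes, where 28.5% of all genes tested were lower and 31.7% higher at that threshold. In all 6, every LAP+ library lay below every adult library, which 27.0% of all genes tested showed. For ENSRNOG00000012613 the separation was lost without TMM, with 247 nuclear CPM in the highest LAP+ and 240.4 in the lowest adult library. The median log2 difference of the 6 was -1.79, against 0.06 over all genes tested. Abundant genes leaned the same way: among the 1122 genes that averaged 100 CPM or more over these 8 libraries, 50.8% were called lower and the median log2 difference was -0.51. Of the cluster, ENSRNOG00000021575 averaged less than that and is not in this class. Together the 6 genes summed to 847 ± 138 CPM in the LAP+ sort, against 2759 ± 132 CPM in adult hepatocytes (SD of 4 libraries in both).

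ENSRNOG00000042901 showed the largest difference. It stood at 16.3, 4.81, 15.05 and 9.97 CPM in the LAP+ libraries, against 529, 527, 514 and 517 CPM in the adult ones. The 4 adult values lie within a few percent of each other, whereas LAP+ replicate 2 is well below the other LAP+ libraries, and the groups are far from overlapping. Its LAP+ mean of 11.5 ± 5.25 CPM was 2.21% of the adult mean of 522 ± 7.20 CPM (mean ± SD, n = 4 per group; fitted log2 difference of -5.50 with an SE of 0.38, adjusted p = 3.8e-09 in edgeR).

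ENSRNOG00000030715 had the highest summed counts of the cluster. Its levels were 361, 227, 402 and 386 CPM in LAP+ and 1239, 1079, 1102 and 1257 CPM in adult libraries. LAP+ replicate 2 is again the lowest, and a gap of more than 600 CPM separates the groups. The means were 344 ± 79.9 and 1169 ± 91.5 CPM (mean ± SD, n = 4 per group; fitted log2 difference of -1.77 with an SE of 0.25, adjusted p = 1.2e-05 in edgeR). ENSRNOG00000042369 had 53.8, 52.5, 72.7 and 66.7 CPM in LAP+ libraries, against 231, 166, 213 and 251 CPM in adult ones. Here the LAP+ mean was 28.5% of the adult mean, close to the 29.4% of ENSRNOG00000030715 (fitted log2 difference of -1.81 with an SE of 0.25, adjusted p = 1.1e-05 in edgeR).

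ENSRNOG00000021575 was measured at 37.0, 23.5, 38.7 and 33.8 CPM in the LAP+ libraries, against 155, 129.8, 142 and 173 CPM in those of adult cells. Its highest LAP+ library stayed under the lowest adult library by more than 3-fold (fitted log2 difference of -2.17 with an SE of 0.22, adjusted p = 4.0e-07 in edgeR). ENSRNOG00000052604 had 237, 183, 244 and 240.0 CPM in LAP+ libraries and 452, 457, 433 and 443 CPM in adult ones. Apart from LAP+ replicate 2 the LAP+ values are tightly grouped, at a level that left the LAP+ mean at 50.6% of the adult mean (fitted log2 difference of -0.98 with an SE of 0.31, adjusted p = 0.012 in edgeR). ENSRNOG00000012613, the plus-strand gene, differed least, with 162, 158, 191 and 171 CPM in LAP+ and 252, 298, 231 and 246 CPM in adult libraries. With TMM scaling the groups did not overlap, by a narrow gap (fitted log2 difference of -0.59 with an SE of 0.24, adjusted p = 0.042 in edgeR).

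Of the 6 calls, that of ENSRNOG00000012613 was the least stable. It was lost without LAP+ replicates 1, 2 or 4 and without adult replicates 1, 2 or 4 (edgeR adjusted p between 0.061 and 0.091), and with library totals in place of TMM scaling (log2 difference -0.12, edgeR adjusted p = 0.58). That scaling moves the median of all genes from 0.06 to 0.53, and relative to this median ENSRNOG00000012613 stood at -0.65 with TMM and -0.66 with library totals. The call of ENSRNOG00000012613 held in a fit of the 8 LAP+ and adult libraries alone (edgeR adjusted p = 0.0024) and with DESeq2 (adjusted p = 0.017). The fits with a single library left out kept the OC2 sorts in the shared spread. The other 5 calls held under every alternative run for this comparison, although library totals left ENSRNOG00000052604 at -0.52 (edgeR adjusted p = 0.038).

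**Figure D2:**
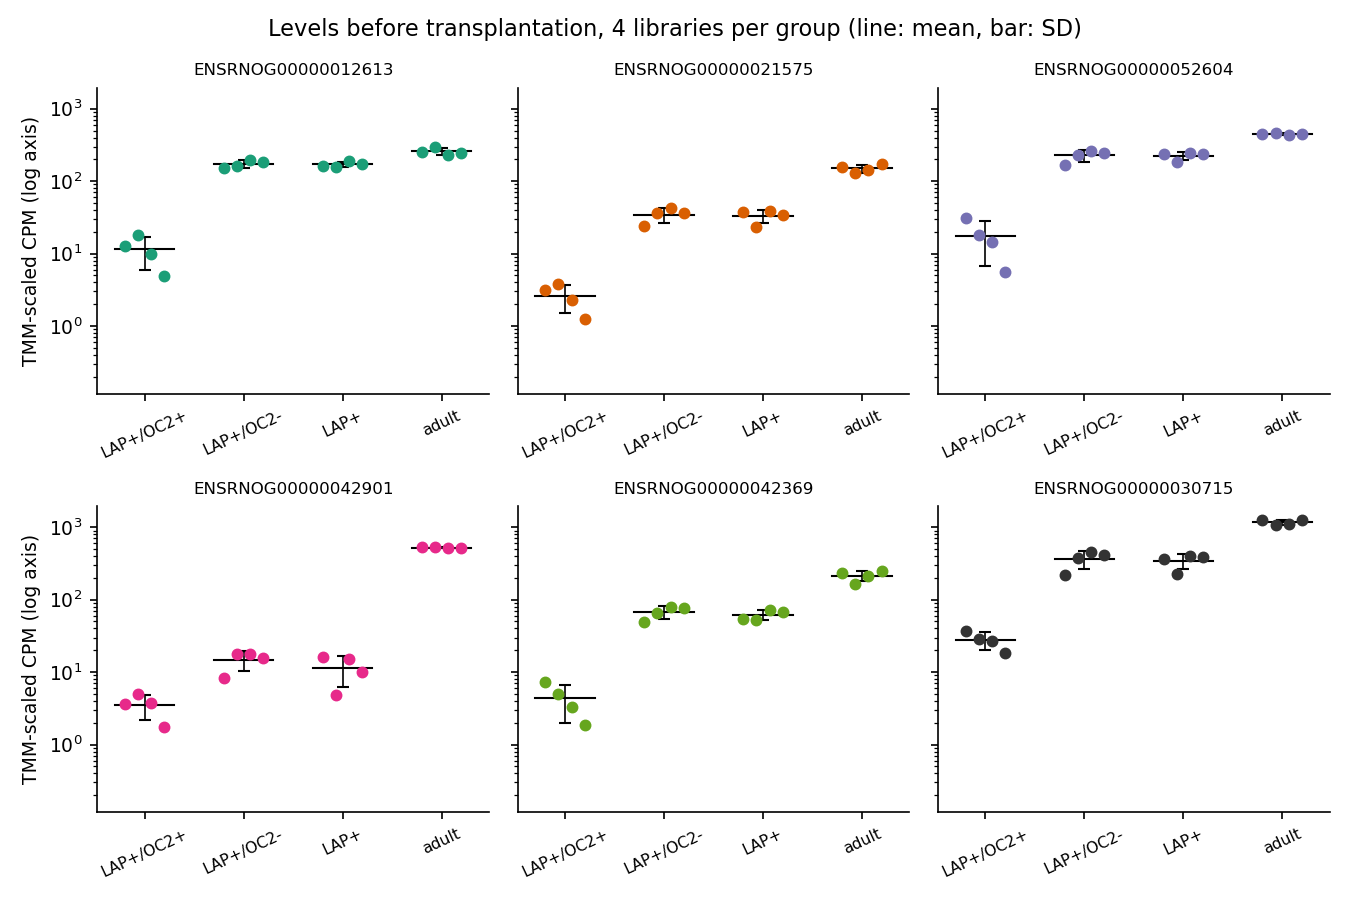
TMM-scaled CPM (log axis) of each gene in the LAP+/OC2+, LAP+/OC2-, LAP+ and adult libraries, 1 point per library, with the mean (line) and SD (bar, n = 4). Adult libraries are the highest for all 6 genes and the LAP+/OC2+ mean is the lowest. ENSRNOG00000042901 lies at 4.81 to 16.3 CPM in the LAP+ sort, against 514 to 529 CPM in adult cells.

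The genes did not keep their proportions between fetal and adult cells. To compare genes, levels were divided by exon length (CPM per kb). Ranks and shares on this scale depend on the listed exon lengths, and so on how complete the annotation of each gene is. For ENSRNOG00000052604 that length is 1170 nt, the shortest of the 6. ENSRNOG00000052604 was the highest gene per length in all 16 pre-transplant libraries, at 193 ± 24.8 CPM per kb in LAP+ and 381 ± 8.89 CPM per kb in adult cells (SD over 4 libraries). ENSRNOG00000042901 ranked last of the 6 in every LAP+ library and 2nd in every adult library, at 7.88 ± 3.59 and 356 ± 4.92 CPM per kb (SD over 4 libraries). It made up 1.99 ± 0.765% of the cluster's summed CPM per kb in LAP+ cells and 28.6 ± 0.8% in adult cells. ENSRNOG00000052604 took 50.3 ± 1.28% in LAP+ and 30.6 ± 0.925% in adult cells, and ENSRNOG00000012613 took 19.1 ± 2.09% and 8.76 ± 1.03%. The share of ENSRNOG00000030715 was close in both, at 18.1 ± 1.95% in LAP+ and 19.2 ± 0.987% in adult cells (SD, n = 4 for each share).

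No tested gene beside the window was called lower in LAP+ cells, as 28.5% of all genes tested were, but few of the neighbouring rows could be tested. The edges of the window came from the contrast of the OC2 sorts, so a different pattern in its neighbours is partly set by that choice. The gene with 28 exons that ends 7163 nt before the cluster (56546021 to 56591793, plus strand) stood at 19.4 ± 6.38 CPM in LAP+ and 5.57 ± 2.95 CPM in adult cells (SD over 4 libraries), and was 1.81 log2 units higher (SE of 0.42, adjusted p = 0.0016 in edgeR). In LAP+/OC2+ cells, where the cluster is lowest, this gene had 69.1 ± 38.5 CPM (SD, n = 4). The 11-exon gene before it (56513286 to 56537142) stood at 2.69 CPM in LAP+ and 2.91 CPM in adult cells (edgeR adjusted p = 0.79). On the far side, the next gene starts 50772 nt beyond the cluster (57131395 to 57521836) and averaged 0.104 CPM in LAP+ and 0.394 CPM in adult cells, too low to be tested.

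As a description, LAP+/OC2+ cells had the lowest mean of all 6 genes, LAP+/OC2- and LAP+ cells lay close together above them, and adult cells were highest. ENSRNOG00000030715 stood at 36.9, 28.5, 26.9 and 18.3 CPM in LAP+/OC2+ libraries and 217, 379, 462 and 412 CPM in LAP+/OC2- libraries. ENSRNOG00000042901 had 3.61, 4.98, 3.75 and 1.73 CPM in LAP+/OC2+ and 8.35, 17.8, 17.9 and 15.5 CPM in LAP+/OC2- libraries. In neither gene did these 2 sorts overlap, but for ENSRNOG00000042901 the LAP+/OC2+ range reached that of LAP+ cells, whose replicate 2 lay lowest. The ranges of the remaining genes in LAP+/OC2+ and LAP+/OC2- libraries were 4.95 to 18.04 and 149.7 to 198 CPM for ENSRNOG00000012613, 1.27 to 3.80 and 23.8 to 43.0 CPM for ENSRNOG00000021575, 5.52 to 31.0 and 167 to 259 CPM for ENSRNOG00000052604, and 1.84 to 7.22 and 49.9 to 79.7 CPM for ENSRNOG00000042369.

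The fitted log2 differences of LAP+/OC2+ from LAP+/OC2- cells lay between -4.06 for ENSRNOG00000042369 and -3.74 for ENSRNOG00000052604 in 5 of the genes, and at -2.14 for ENSRNOG00000042901, beside a median of -0.18 over all genes tested. These are the values that delimited the window. Each gene rested on few reads in this sort, from 11 to 16 counts per library for ENSRNOG00000021575 up to 120 to 165 for ENSRNOG00000030715. ENSRNOG00000042901 took 8.29 ± 1.98% of the cluster's summed CPM per kb in LAP+/OC2+ cells and 2.53 ± 0.44% in the OC2- sort (SD over 4 libraries). The mitochondrial share averaged 62.2 ± 17.9% in LAP+/OC2+ and 4.94 ± 0.699% in the LAP+/OC2- sort (SD, 4 libraries per sort), and its part in these levels was not tested. As a share of nuclear counts alone, which leaves the mitochondrial rows out, the 6 genes took 0.0126 ± 0.00559% of the LAP+/OC2+ sort, 0.116 ± 0.0175% of the LAP+/OC2- sort, 0.116 ± 0.0126% of LAP+ and 0.283 ± 0.0113% of adult cells (SD over 4 libraries). On that scale the mean of ENSRNOG00000030715 in LAP+/OC2+ cells was 51.8 CPM of nuclear counts, beside 27.6 CPM with TMM scaling.

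LAP+/OC2- cells lay close to LAP+ cells. Their fitted log2 differences from LAP+ cells were 0.02, 0.06, 0.00, 0.37, 0.14 and 0.10 for the 6 genes in order of position, and the libraries of these sorts overlapped for every gene. With TMM scaling, LAP+ replicate 2, LAP+/OC2- replicate 1 and LAP+/OC2+ replicate 4 each had the lowest level of their sort for all 6 genes. As a share of nuclear counts without TMM this held for the LAP+/OC2- and LAP+/OC2+ libraries, but ENSRNOG00000012613 and ENSRNOG00000042369 were then lowest in LAP+ replicate 1. Across the 16 pre-transplant libraries the log2(CPM + 1) values of the 15 gene pairs correlated with r from 0.66 to 0.99 (median 0.96), as a description of libraries that share their groups. After group means were subtracted, r ran from 0.54 to 0.90 (median 0.79), and in the 10 post-transplant libraries from 0.0014 to 0.96 (median 0.73). These values share the TMM factor of each library, and no other gene pairs were set beside them.

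By the same measure, Pearson's r of log2(CPM + 1) over the 16 libraries with the mean of the 6 genes, the most similar of 7388 other genes averaging at least 10 CPM were ENSRNOG00000003119 (chromosome 14, 20266891 to 20302581), with r of 0.998, and ENSRNOG00000010031 (chromosome 10, 65767053 to 65771038), with r of 0.997. ENSRNOG00000003119 averaged 181 CPM in LAP+/OC2+, 2038 CPM in LAP+/OC2-, 1967 CPM in LAP+ and 9230.5 CPM in adult cells. Of the 6 genes, ENSRNOG00000021575 had the profile closest to the mean of the cluster (r of 0.999), and ENSRNOG00000042901 the least close (r of 0.865, rank 1648). Each of the 6 is itself part of that mean, which raises its r. The 16 libraries also include the OC2 sorts whose contrast chose the window, so all these r values are a description only.

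After transplantation all 6 genes had negative fitted differences between colony and host tissue, between -0.41 and -0.72 on the log2 scale, and 3 of them were called lower in colonies. Those were ENSRNOG00000052604, ENSRNOG00000042901 and ENSRNOG00000030715. With the animal as a block, edgeR's test called 0.61% of 22303 genes lower and 0.565% higher. The median log2 difference of the 6 was -0.56, against 0.11 over all genes tested. All 6 genes were lower in the colony in at least 4 of the 5 animals, which held for 24.5% of genes tested, and 2 in all 5 animals, which held for 5.68%. Without TMM, ENSRNOG00000021575 was lower in 3 animals and ENSRNOG00000030715 in all 5. No gene of the cluster had all colony libraries below all host libraries (0.439% of genes tested did). Among the 4118 genes averaging 30 CPM or more in these 10 libraries, 2.82% were called lower and 89.5% had a negative difference, with a median of -0.20.

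ENSRNOG00000042901 stood at 24.7, 46.6, 40.3, 23.8 and 17.7 CPM in the colonies of animals 242, 243, 246, 248 and 249, against 49.2, 73.7, 42.1, 39.4 and 29.9 CPM in their hosts. Colony tissue was lower in every animal, in animal 246 by a small margin (fitted log2 difference of -0.64 with an SE of 0.14, adjusted p = 0.023 in edgeR). ENSRNOG00000052604 had 21.1, 47.1, 38.6, 27.6 and 17.6 CPM in the colonies and 55.0, 72.5, 34.6, 51.1 and 32.5 CPM in the hosts, in the same order of animals. It was lower in 4 colonies and higher in that of animal 246 (fitted log2 difference of -0.72 with an SE of 0.16, adjusted p = 0.026 in edgeR). ENSRNOG00000030715 had 1091, 1478, 1391, 2491 and 1266 CPM in colonies, against 2107, 2226, 1337, 3517 and 2050.4 CPM in hosts. Animal 248 was the highest in both tissues, and animal 246 again ran the other way (fitted log2 difference of -0.54 with an SE of 0.14, adjusted p = 0.047 in edgeR). The host library of animal 248 had counts on 19581 features, against 25127 to 28361 in the other post-transplant libraries. Its colony library had the lowest total of that stage, at 8500596 counts. The part of these traits in the levels of animal 248 was not tested.

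The remaining genes did not pass the threshold. ENSRNOG00000012613 stood at 108, 127, 98.1, 168 and 76.2 CPM in colonies and 169, 181, 98.8, 225 and 112 CPM in hosts, with the colony lower in all 5 animals (fitted log2 difference of -0.43 with an SE of 0.12, adjusted p = 0.063 in edgeR). ENSRNOG00000021575 had 31.3, 52.2, 51.2, 44.0 and 21.5 CPM in colonies and 83.5, 87.2, 47.1, 50.3 and 34.4 CPM in hosts (fitted log2 difference of -0.58 with an SE of 0.16, adjusted p = 0.071 in edgeR). Its largest within-animal difference was in animal 242, at -1.42 on the log2 scale. ENSRNOG00000042369 had 132, 167, 137, 192 and 109 CPM in colonies, against 219.5, 255, 131, 236 and 150.2 CPM in hosts (fitted log2 difference of -0.41 with an SE of 0.13, adjusted p = 0.081 in edgeR). For both, animal 246 was the exception to a lower colony level.

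The 3 calls depended on single animals, the scaling, the filter and the fit. Without animal 242 or animal 249 no gene of the cluster was called, without animal 243 only ENSRNOG00000052604 was (edgeR adjusted p = 0.025), and without animal 248 the 3 called were ENSRNOG00000021575, ENSRNOG00000052604 and ENSRNOG00000042901. Without animal 246 all 6 were called, with log2 differences from -0.53 for ENSRNOG00000042369 to -0.94 for ENSRNOG00000052604. None was called without the animal block (edgeR adjusted p of 0.31 for ENSRNOG00000042901, on the same genes), with the stricter low-count filter or with library totals in place of TMM. Library totals left log2 differences of -0.18 for ENSRNOG00000012613, -0.33 for ENSRNOG00000021575, -0.47 for ENSRNOG00000052604, -0.39 for ENSRNOG00000042901, -0.16 for ENSRNOG00000042369 and -0.28 for ENSRNOG00000030715 (edgeR adjusted p between 0.051 and 0.29), while the median of all genes was 0.36 with them and 0.11 with TMM. Relative to that median the 6 differences lay between -0.51 and -0.83 with library totals and between -0.52 and -0.83 with TMM.

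**Figure D3:**
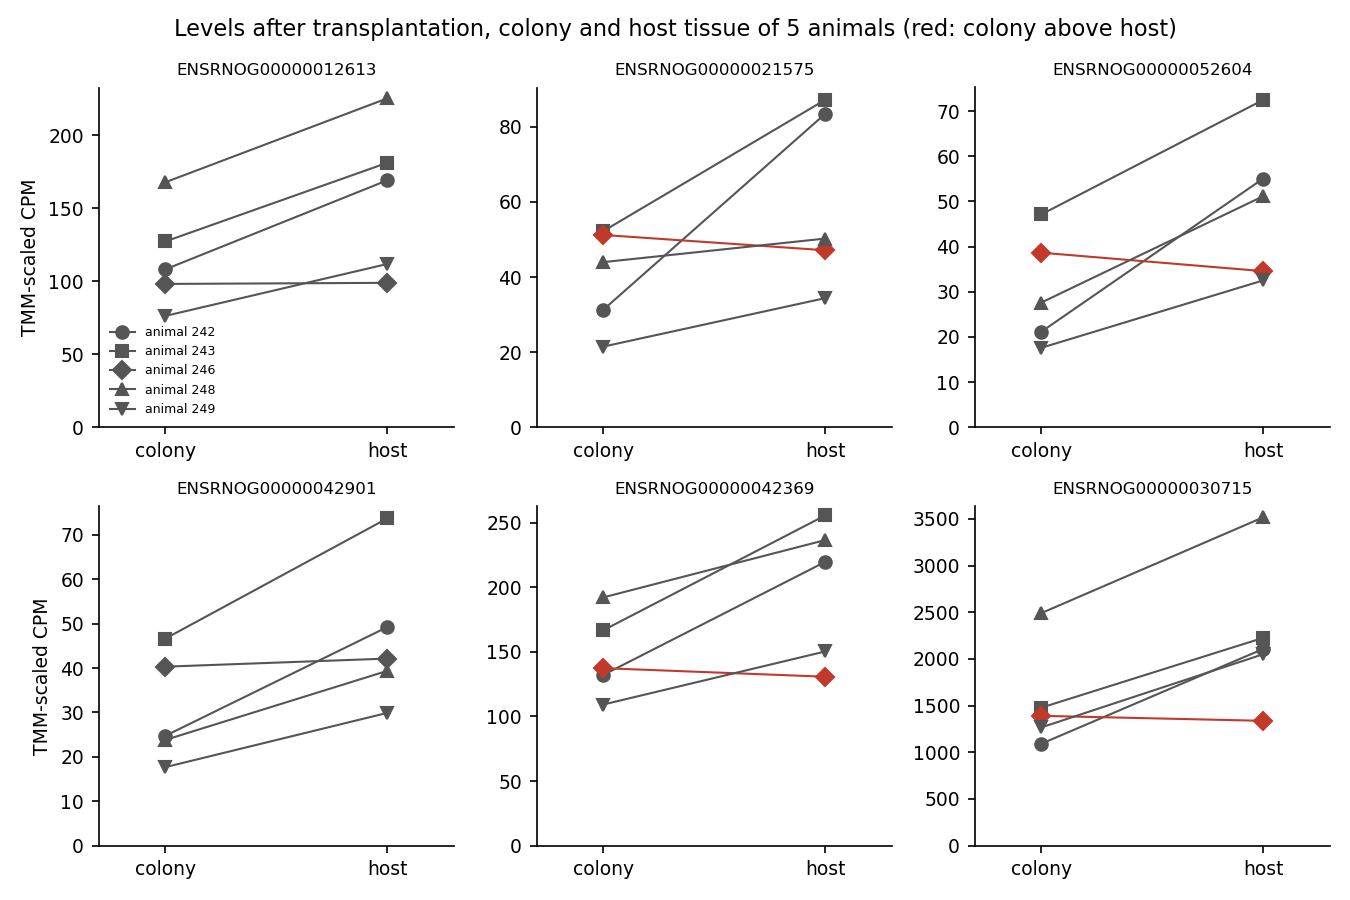
TMM-scaled CPM of each gene in colony tissue (left) and host tissue (right), with a line joining the 2 libraries of each of the 5 animals. Lines run up to the host in every animal but 246, where 4 of the 6 genes were slightly higher in the colony (red).

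The fetal to adult difference was measured at both stages, and the change between them was tested in 1 fit of all 26 libraries as the colony minus host difference less the LAP+ minus adult difference. It was positive, meaning a smaller deficit after transplantation, for 4 of the 6 genes at an adjusted p under 0.05, against 9.85% higher and 17.1% lower of 23459 genes tested. ENSRNOG00000042901 changed most, by 4.67 (SE 0.38, adjusted p = 1.1e-09 in edgeR), beside differences of -0.64 between colony and host and -5.50 between LAP+ and adult cells in the fits of each stage. The change was 1.40 for ENSRNOG00000021575 (SE 0.29, edgeR adjusted p = 4.2e-04), 1.21 for ENSRNOG00000042369 (SE 0.28, edgeR adjusted p = 0.0015) and 1.04 for ENSRNOG00000030715 (SE 0.29, edgeR adjusted p = 0.0071). For ENSRNOG00000012613 it was -0.03 (SE 0.27) and for ENSRNOG00000052604 0.07 (SE 0.37), both with an edgeR adjusted p of 1. These differences share no library between stages, but kit, material and capture change with the stage and cannot be told apart from transplantation. A smaller deficit does not say which side of the comparison moved. As values side by side, raw counts of ENSRNOG00000042901 were 2.28 ± 0.981% of those of ENSRNOG00000030715 in host tissue (SD over 5 animals), beside 44.8 ± 3.51% in adult hepatocytes (SD over 4 libraries), both adult by their labels. On the fetal side the same percent was 2.13 ± 0.946% in colonies (SD over 5 animals) and 3.24 ± 1.09% in LAP+ cells (SD over 4 libraries). The part of kit and material in these values was not tested. Over all genes the fit called 2311 higher and 4022 lower, which turned to 2925 and 3027 with RLE size factors. Those factors moved the median of all genes from -0.02 to 0.18, and relative to the median the 4 changes were 1.06 to 4.69 with TMM and 1.08 to 4.72 with RLE.

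**Figure D4:**
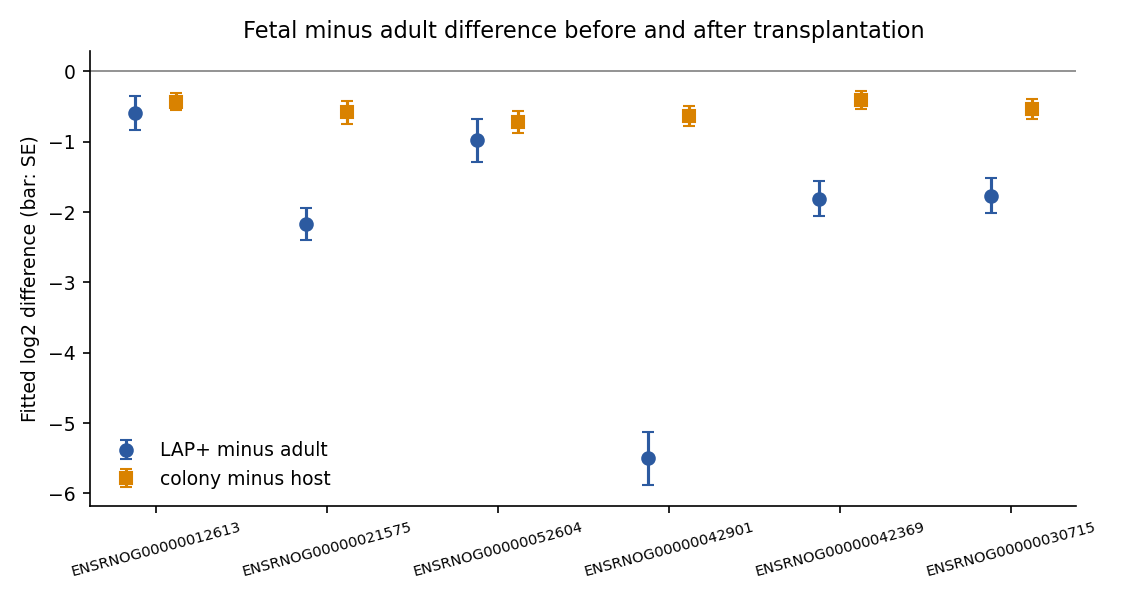
Fitted log2 difference of LAP+ minus adult cells (circles) and of colony minus host tissue (squares) for each gene, with SE. The first spans -0.59 to -5.50 and the second -0.41 to -0.72, and the 2 lie together for ENSRNOG00000012613 and ENSRNOG00000052604.

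Within the post-transplant libraries the make-up of the cluster was close in colony and host. ENSRNOG00000030715 was the highest gene per length in all 10, with 64.6 ± 5.96% of the cluster's summed CPM per kb in colonies and 64.9 ± 6.54% in host tissue (SD over 5 animals). ENSRNOG00000042901 took 4.45 ± 1.68% in colonies and 4.76 ± 1.70% in hosts, and ENSRNOG00000052604 took 5.44 ± 1.94% and 6.06 ± 1.47% (SD, n = 5 for each share). The largest gap between colony and host means was that of ENSRNOG00000042369, at 10.6 ± 1.16% and 9.73 ± 1.27% (SD over 5 animals). Within animals, raw counts of ENSRNOG00000042901 as a percent of those of ENSRNOG00000030715 were lower in the colony in all 5, for example 0.956% in the colony and 1.12% in the host of animal 248. The same percent was higher in the colony in 4 of 5 animals for ENSRNOG00000012613 and in 4 of 5 for ENSRNOG00000042369, and these differences were not tested.

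**Figure D5:**
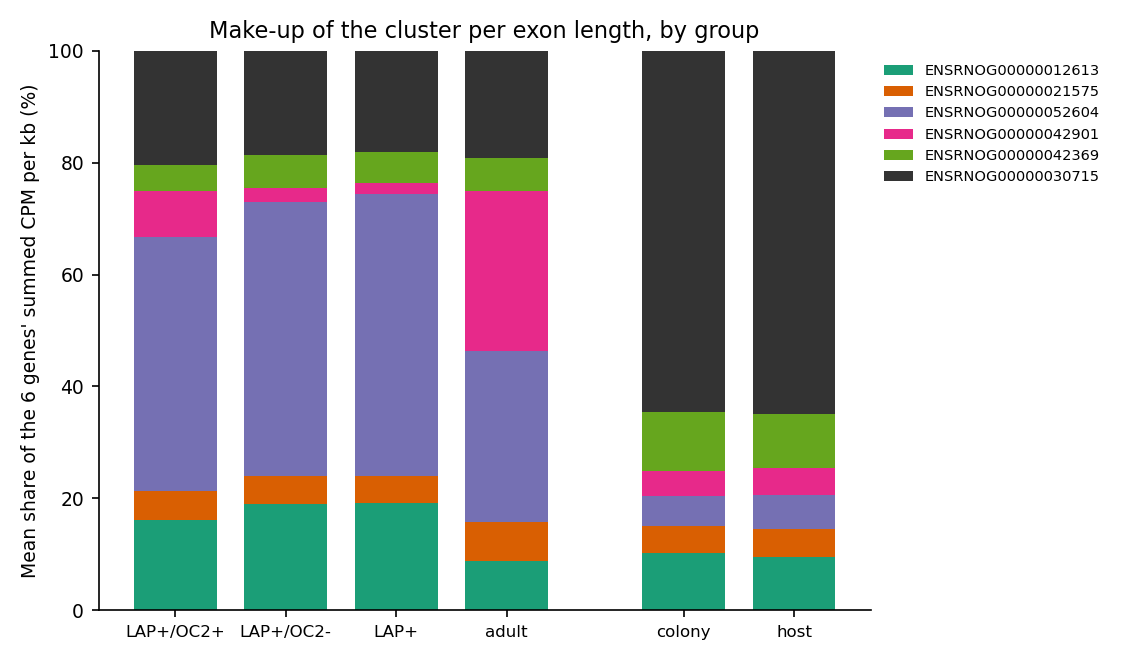
Mean share of each gene in the cluster's summed CPM per kb (%), by group, with the pre-transplant groups on the left and the post-transplant tissues on the right. ENSRNOG00000042901 takes 1.99% in LAP+ cells and 28.6% in adult cells, while colony and host columns are nearly the same. The 2 stages used different library kits and are not compared.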

How the data were processed

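The authors deposited raw counts per feature for 26 libraries, with exon coordinates and merged exon length, per the file headers. Reads were handled with STAR 2.5.2b, Trimmomatic 0.36, bcl2fastq 2.17 and the featureCounts program (Subread 1.5.2), per the submitters' processing notes, which give no order. Per the labels' protocols, sorted cells went into NEBNext Ultra libraries and captured tissue into SMARTer Stranded Total RNA (Pico) libraries. The sources used here name no genome build, annotation release or strand setting.

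The tests ran under R 4.3.3: edgeR 4.0.16 with TMM scaling, filterByExpr given the design, and the robust quasi-likelihood fit, with p-values adjusted by the Benjamini-Hochberg method across every gene tested. LAP+ was set against adult in 1 fit of the 16 pre-transplant libraries, colony against host with the animal as a block, and the change between stages in all 26. Titles give the groups and biological replicate numbers, and p-values rest on the spread between those replicates. For LAP+ against adult that spread is pooled over all 16 pre-transplant libraries, so the OC2 sorts, whose contrast chose the window, supply part of it. For colony against host it is the spread left after the animal block. Colony and host libraries share replicate numbers and the colony lay within the host tissue, the source of the pairing by animal. However, deviations within animals correlated only from -0.25 to 0.34, and only the colony of animal 243 correlated best with its own host. All 44 replicate pairs differed by more than counting noise (lowest ratio of chi-square to degrees of freedom 5.21). Alternatives used DESeq2 1.42.0, limma 3.58.1 (voom), other scalings and filters, and left-out libraries. The genes, the groupings and the tests were chosen with earlier results of these data known, and all 6 genes are named. The lists of complement genes and cell type markers could not be applied, because the identifiers have no symbols.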

Additional observations from a re-analysis of the deposited data

Results flagged for a closer look

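Of the 36 sets of values checked (6 genes in 6 groups), 2 had a library far from the rest of its group, where chance gives about 1 in 20. ENSRNOG00000052604 stood at 183 CPM in LAP+ replicate 2, below the other 3 LAP+ libraries. Without TMM replicate 2 was again the lowest, by a smaller gap, at 266 CPM beside 293 to 316 CPM in the others. ENSRNOG00000030715 stood at 2491 CPM in the colony of animal 248, above the other 4 colonies, and the host of that animal was the highest host. That colony library had the lowest total of its stage, and that host library the fewest features with a count.

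The fetal to adult difference changed between the stages, by the test of the change itself, for ENSRNOG00000021575 (1.40 on the log2 scale), ENSRNOG00000042901 (4.67), ENSRNOG00000042369 (1.21) and ENSRNOG00000030715 (1.04). Library kit and material also changed with the stage, so the part of transplantation in these values cannot be told apart.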

How the results depend on the processing

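In LAP+ against adult cells, 5 or 6 of the 6 genes were called lower under each alternative run for that comparison, and 4 changes between the stages under each run for them. Limma-voom was run for colony against host alone, and the stricter filter and the fit without mitochondrial rows were not run for the change. The colony calls were the least stable. Against 3 genes of the cluster and 262 of all genes, the counts were 5 and 751 without a low-count filter, 6 and 717 with DESeq2, and 6 and 2020 with limma-voom and library quality weights together. They were 0 and 6 with the stricter low-count filter and the same with the filter set by group size, and 0 and 225 with library totals. Without the replicate block they were 0 and 0 in edgeR, for the genes of the blocked fit (3483 with p under 0.05 before adjustment) or on those its own filter keeps (3007). Leaving out single animals gave from 0 to 6 of the 6 and from 0 to 2683 of all genes. Every colony difference of the 6 stayed negative in these runs.

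The replicate numbers of LAP+ and adult cells share only a number (correlations of deviations from -0.13 to 0.07, no library closest to its own number); with them as a replicate block all 6 genes and 7827 of all genes were called, against 8330. The change between stages, near 0 for ENSRNOG00000012613, turned sign with RLE size factors (0.19), no low-count filter (0.159), DESeq2 (0.19), the filter by group size (0.17) and no replicate block (0.145). With single libraries or animals left out it ran from -0.131 to 0.178, and for ENSRNOG00000052604 from -0.147 to 0.318. The cause was not tested. The alternatives with library totals, the filter by group size and the block-free fit on the same genes were added after the data were seen. Counts of 11 to 165 per gene limit the levels in LAP+/OC2+ cells.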

Other observations

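Raw counts of ENSRNOG00000042901, as a percent of those of ENSRNOG00000030715 in the same library, averaged 12.7 ± 3.82% in LAP+/OC2+, 4.05 ± 0.444% in LAP+/OC2-, 3.24 ± 1.09% in LAP+ and 44.8 ± 3.51% in adult cells (SD, n = 4 each). In tissue the same ratio was 2.13 ± 0.946% for colonies and 2.28 ± 0.981% for host liver (SD over 5 animals). For ENSRNOG00000052604 it was 67.3 ± 9.09% in LAP+ and 38.4 ± 3.16% in adult cells (SD, n = 4 each), beside 2.08 ± 0.889% for colonies and 2.30 ± 0.761% for host liver (SD over 5 animals). Host liver and adult hepatocytes are both adult by their labels, but they went through different kits, so these ratios are given side by side and were not tested.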
